A study of Homo sapiens with 2 samples.

Results

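The 10 genes described here belong to the canonical Wnt and beta-catenin pathway. They were taken by symbol from the deposited table (CTNNB1, APC, AXIN1, AXIN2, LGR5, TCF7L2, LEF1, NKD1, RNF43 and ZNRF3), and all 10 were found among its 61541 genes. The study sequenced RNA of Huh7, an established human hepatocellular carcinoma (HCC) cell line, transfected either with a control siRNA, here called Huh7-NC, or with an siRNA that targets BRF2, called Huh7-si. BRF2 is a subunit of an RNA polymerase III initiation factor. Both conditions are the same cell line and share the transfection, and they differ by the siRNA. Each condition has 1 library, so no difference between conditions has a replicate check, and which siRNA against BRF2 was used is not given in the sources used here.

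Wnt signaling controls the stability of beta-catenin. Without a Wnt ligand, a destruction complex built on the scaffolds APC and axin lets kinases mark beta-catenin for degradation. When a ligand binds a Frizzled receptor and LRP5 or LRP6, that complex is held back, beta-catenin enters the nucleus and binds TCF and LEF factors on DNA, and target genes are transcribed. Several targets are themselves brakes of the pathway, and in liver the pathway is known for setting the gene program of hepatocytes around the central vein and for frequent activation in HCC.

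The authors gave each gene and library an estimated count of reads and a TPM, a transcript level scaled for gene length and library. The Huh7-NC library totals 22852648 reads and the Huh7-si library 22089016, and a count of 0 allows up to 3 reads, or 0.131 and 0.136 CPM (counts per 1000000 counts of the library). As a check of the labels, BRF2 fell from 1281 to 364 reads (log2 change -1.77). All 11 hepatocyte markers examined had reads, and together they made up 19477 and 20304 CPM, in the order Huh7-NC and Huh7-si that is kept throughout. They did not share a direction: in Huh7-si 5 had a higher CPM and 6 a lower CPM. APOA1 fell most, with 15460 and 8417 reads, and APOB rose most, with 20889 and 41399. The 5 stromal markers summed to 12.6 and 24.5 CPM, with COL1A1 at 76 and 229 reads. PDGFRB had 158 and 218 reads, LUM 36 and 50, COL3A1 19 and 44, and DCN 0. The 5 endothelial markers summed to 2.80 and 3.03 CPM, mostly PECAM1 with 60 and 63 reads, and KDR had 0. The 5 immune markers summed to 10.5 and 11.1 CPM, mostly CD68 with 235 and 244 reads, and CD3E, CD163 and MS4A1 had 0. Mitochondrial transcripts took 3.8% and 5.3% of the reads. The part of the low markers or of the mitochondrial share in the results was not tested, and in a bulk library fewer cells that express a gene cannot be told apart from less of its RNA per cell. A log2 change is the log2 of the ratio of CPM, Huh7-si over Huh7-NC. Intervals are 95% exact Clopper-Pearson intervals that cover counting error only, and p-values come from a two-sided exact binomial test on reads, so they compare 2 libraries rather than 2 conditions.

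LGR5 and APC were the members that rose past a fold of 2 in Huh7-si, TCF7L2 was 1.65-fold higher, and CTNNB1, AXIN1, NKD1 and LEF1 were within 1.10-fold of their level in Huh7-NC. A gene was counted as higher or lower when its CPM ratio was at least 2 in either direction and the unadjusted p of the exact binomial test was under 0.05, among the 17955 genes with at least 10 reads over both libraries. All 10 members passed this read filter. By that rule 2 of 10 were higher and 0 were lower, against 13.0% and 1.19% of all genes tested. At a fold of 1.5 the members counted as higher were LGR5, APC and TCF7L2, against 23.6% of all genes tested. The counting interval lay above 0 for 7 of the 10 members and held 0 for AXIN1, LEF1 and NKD1, and it lay above 0 for 41.2% of all genes tested. The median log2 change of the members was 0.37, and that of all genes tested was 0.21.

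**Figure D1:**
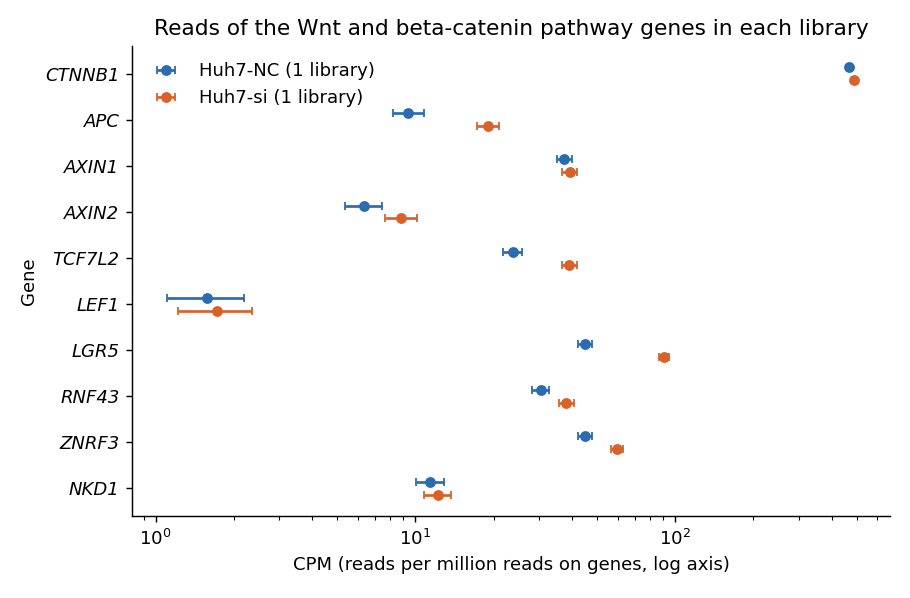
CPM of the 10 genes (log axis) in the Huh7-NC library (blue) and the Huh7-si library (orange), with 95% exact Poisson intervals for counting error. LGR5 (45.2 and 90.9 CPM) and APC (9.41 and 19.1 CPM) are the most separated pairs, while the points of LEF1 (1.58 and 1.72 CPM) lie within each other's intervals.

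Levels were compared between genes as CPM per kilobase of the deposited gene length. On this scale CTNNB1 stood far above the rest at 149 in Huh7-NC and 156 in Huh7-si. In Huh7-NC the next members were AXIN1 at 10.1 (95% Poisson interval 9.45 to 10.8) and LGR5 at 9.85 (9.26 to 10.5), which did not differ beyond counting error. RNF43 at 6.72, ZNRF3 at 6.53 and TCF7L2 at 5.82 formed a middle group in which neighbors overlapped. AXIN2 at 1.49, APC at 0.879, NKD1 at 0.668 and LEF1 at 0.441 were lowest, and of these neighbors NKD1 and LEF1 alone overlapped. In Huh7-si the order changed at the top, where LGR5 at 19.8 (19.0 to 20.7) stood above AXIN1 at 10.6 (9.90 to 11.3). At the low end of Huh7-si, APC reached 1.78 (1.61 to 1.96) and overlapped with AXIN2 at 2.07 (1.79 to 2.38). Below CTNNB1, the order depended on the scale. By TPM in Huh7-NC, APC (1.05) was lowest, under NKD1 (1.22) and LEF1 (1.26). TCF7L2 (11.1) was above RNF43 (10.6) and ZNRF3 (9.15) on that scale. By TPM in Huh7-si, LEF1 (2.35) was above NKD1 (1.5) and TCF7L2 (21.0) was above AXIN1 (17.8).

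CTNNB1 encodes beta-catenin, the protein that carries the signal into the nucleus and also links cadherins to the cytoskeleton. It lies on chromosome 3 from 41194741 to 41260096 (plus strand, GENCODE release 29, GRCh38). Huh7-NC held 10658 of its reads and Huh7-si 10770, or 466 and 488 CPM. Its TPM in Huh7-NC was above that of 96.2% of the genes tested. The log2 change of CTNNB1 was 0.06 (95% interval 0.03 to 0.10), a 4.54% difference that is small but larger than counting error at this depth when the libraries are scaled by total reads. With TMM scaling (edgeR's trimmed mean of M values) it was -0.16, so the direction of so small a difference depends on the scaling.

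APC encodes the large scaffold that holds beta-catenin in the destruction complex, and its loss is a classical cause of pathway activation. It lies on chromosome 5 from 112707498 to 112846239 on the plus strand. APC rose from 215 to 421 reads, or from 9.41 to 19.1 CPM. That is a log2 change of 1.02 (95% interval 0.78 to 1.26) with p = 5.2e-18 by the exact binomial test, or 3.5e-17 adjusted by Benjamini-Hochberg over the genes tested. The lower end of that interval is under the fold threshold. AXIN1, the constitutive axin scaffold on chromosome 16, had 857 and 867 reads (37.5 and 39.3 CPM), a log2 change of 0.07 (-0.07 to 0.20) that is within counting error. AXIN2 on chromosome 17, which does the same work but is itself a target of the pathway and so a negative feedback, had 145 and 195 reads (6.35 and 8.83 CPM). The log2 change of AXIN2 was 0.48 (0.16 to 0.80), above 0 and under the threshold.

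Among the DNA-binding partners of beta-catenin, TCF7L2 was higher and LEF1 was not distinguishable between the libraries. TCF7L2, on chromosome 10 from 112950250 to 113167678 on the plus strand, was counted with 542 reads in the control library and 864 after BRF2 siRNA (23.7 and 39.1 CPM). The log2 change was 0.72 (0.57 to 0.88). LEF1, the lymphoid enhancer binding factor on chromosome 4, had 36 and 38 reads (1.58 and 1.72 CPM) and a log2 change of 0.13 (-0.57 to 0.83). With so few reads the interval of LEF1 is the widest of the members. The other TCF genes were TCF7 with 538 and 407 reads (log2 change -0.35, -0.54 to -0.17) and TCF7L1 with 383 and 405 reads (0.13, -0.08 to 0.33). TCF7L2 and TCF7 had nearly the same reads in Huh7-NC, at a ratio of 1.01, and stood at 2.12 to 1 in Huh7-si. TCF7 overlaps SKP1 on the opposite strand (5344 and 3633 reads). Because strandedness is not given in the sources used here, the assignment of reads in the shared exonic bases is uncertain.

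TCF and LEF factors bind DNA at a core written CTTTG, most often followed by A or T bases. To show what these letters look like near the members, the RefSeq windows from 250 bases before to 50 bases after each transcription start (GRCh38.p14, matched by symbol) were searched on both strands, where the reverse complement of the core reads CAAAG. The table gave 10 windows for 6 members (CTNNB1, APC, AXIN1, TCF7L2, LEF1 and RNF43). No window was available for AXIN2, LGR5, NKD1 or ZNRF3, so whether their starts have the core nearby is not known here. Of these, 5 held the core, against 47.5% of all 35116 windows, and 1 held the core followed by a pair of A or T bases, in any order, against 13.8%. The windows of CTNNB1, APC and AXIN1 held no core. The following stretches, each 29 bases with the core in capitals, are shown because these 3 genes are the searched members whose windows contain it. They are 4 of 7 occurrences. The other 3 lie in the windows of the same internal TCF7L2 start and of 1 more internal start, and the window at the first start of TCF7L2 held no core. They are descriptions of letters, and the RNA data do not measure binding.
LEF1, chr4:108166409-108166437, minus strand: gccttttccctcCAAAGaaacttggagga
TCF7L2, chr10:113126488-113126516, plus strand: caaaatatcaggCTTTGttcttttgattg
RNF43, chr17:58417608-58417636, minus strand: gctccaccctcaCTTTGtcagcaggtaga
RNF43, chr17:58402839-58402867, minus strand: cattttctcccaCAAAGgaaaacctcagc
The stretch of TCF7L2 lies 133 bases before an internal start of the gene and is the member window in which a pair of A or T bases follows the core. The LEF1 stretch and the second RNF43 stretch also lie inside their genes, which on the minus strand begin at 108168956 and 58417595 in GENCODE release 29. Whether the core has a part in any change of these genes was not tested.

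Among the members at the cell surface, LGR5 rose past the threshold and RNF43 and ZNRF3 stayed under it. LGR5 is a receptor for R-spondins, which amplify Wnt signals, and is a widely used target gene and stem cell marker. It lies on chromosome 12 from 71439770 to 71586310 on the plus strand. LGR5 rose from 1032 to 2008 reads, or from 45.2 to 90.9 CPM. For LGR5 the log2 change was 1.01 (0.90 to 1.12), with p = 1.2e-78 by the exact binomial test, or 4.0e-77 adjusted over the genes tested. The interval spans the fold threshold, so LGR5, like APC, sits at the edge of the rule. Its relative LGR4 had 2326 and 3360 reads, a log2 change of 0.58 (0.50 to 0.66), while LGR6 had no reads in either library.

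RNF43 and ZNRF3 are membrane ubiquitin ligases that remove Frizzled from the cell surface and are held in check by R-spondins. ZNRF3, on chromosome 22, had 1025 and 1324 reads (44.9 and 59.9 CPM), a log2 change of 0.42 (0.30 to 0.54). RNF43, on chromosome 17, had 694 and 843 reads (30.4 and 38.2 CPM), a log2 change of 0.33 (0.18 to 0.48). Both were above 0 beyond counting error and below the threshold, and their ratio to each other, 1.48 in Huh7-NC and 1.57 in Huh7-si, differed by 0.09 on the log2 scale (-0.10 to 0.28), within counting error. RNF43 shares exonic bases with SUPT4H1 and ENSG00000285897 on its own strand (2170 and 1685 reads, and 128 and 234 reads), so the assignment of its reads is uncertain. NKD1, an inhibitor that binds Dishevelled and is induced by the pathway, lies on chromosome 16 and had 260 and 270 reads (11.4 and 12.2 CPM). Its log2 change of 0.10 (-0.15 to 0.35) is within counting error.

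**Figure D2:**
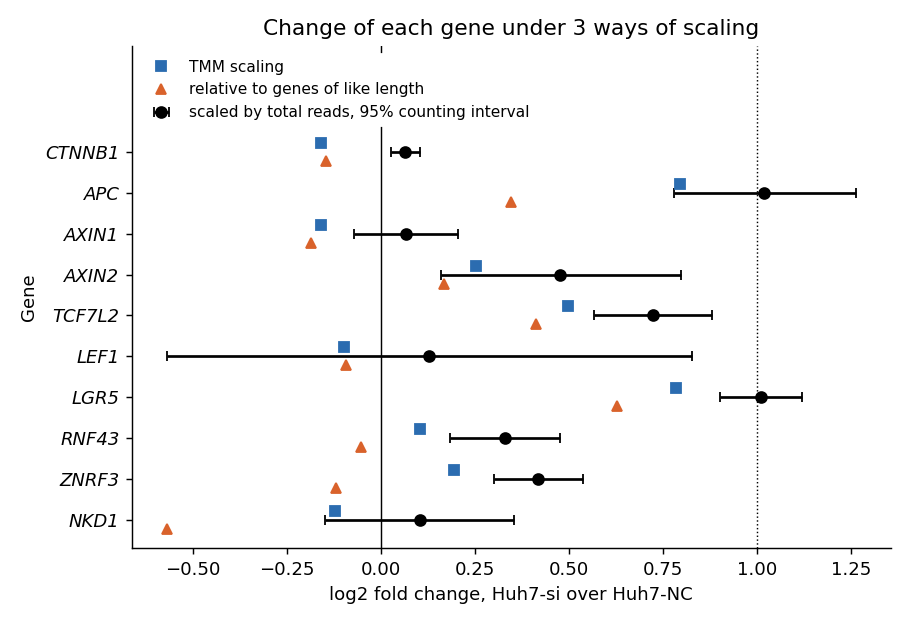
Log2 change (Huh7-si over Huh7-NC) of the 10 genes scaled by total reads with its 95% counting interval (black), with TMM scaling (blue squares) and relative to the median of genes of like length (orange triangles). The dotted line marks a fold of 2. LGR5 and APC reach it with total reads and stand at 0.78 and 0.79 with TMM scaling.

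Ratios of reads between genes within a library do not depend on how the libraries are scaled. They are not adjusted for gene length, with which change between these libraries varied, as given below. LGR5 had 0.0968 and 0.186 reads for each read of CTNNB1, a log2 ratio of ratios of 0.95 (95% exact conditional interval 0.83 to 1.06). For APC the same ratio went from 0.0202 to 0.0391, or 0.95 (0.71 to 1.20), and for TCF7L2 it was 0.66 (0.50 to 0.82). ZNRF3 at 0.35 (0.23 to 0.48), AXIN2 at 0.41 (0.09 to 0.73) and RNF43 at 0.27 (0.11 to 0.42) also gained on CTNNB1. Relative to genes of like length, CTNNB1 stood at -0.15, ZNRF3 at -0.12, RNF43 at -0.05 and AXIN2 at 0.17. AXIN1 had 0.0804 and 0.0805 reads for each read of CTNNB1, with an interval from -0.14 to 0.15. NKD1 at 0.04 (-0.21 to 0.29) and LEF1 at 0.06 (-0.63 to 0.76) likewise could not be told from CTNNB1 beyond counting error.

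The members that are targets of the pathway did not differ by 1 common factor between these libraries. LGR5 had 7.12 and 10.3 reads for each read of AXIN2, a log2 ratio of ratios of 0.53 (0.19 to 0.87). Against NKD1 the reads of LGR5 went from 3.97 to 7.44 to 1, or 0.91 (0.63 to 1.18). Against its relative LGR4 the value was 0.43 (0.30 to 0.56). Within the destruction complex, APC went from 0.251 to 0.486 reads for each read of AXIN1, or 0.95 (0.67 to 1.23), and from 1.11 to 2.07 for each read of its relative APC2, or 0.90 (0.52 to 1.29). Relative to genes of like length, APC stood at 0.35, AXIN1 at -0.19 and APC2 at -0.56. APC2 had 194 and 203 reads and overlaps C19orf25 on the opposite strand (821 and 547 reads).

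Change between these libraries varied with gene length, so each member was also set beside genes of like length, in 20 bins of the genes tested. The median log2 change was -0.17 in the bin from 700 to 958 bases and 0.67 in the bin of the longest genes, which holds APC (10704 bases) and NKD1 (17039 bases). APC lay 0.35 above its bin's median, with 73.6% of the genes of like length below it. LGR5 (4583 bases) lay 0.63 above, with 86.2% below it, and TCF7L2 (4073 bases) lay 0.41 above, with 78.0% below it. NKD1 stood at the other end, 0.57 below the median of its bin, with 13.3% of the genes of like length below it. Of the 10 members, 4 lay above the median of their bin, namely APC, LGR5, TCF7L2 and AXIN2, and the median of all 10 relative to like length was -0.07. All 10 members had a log2 change above 0 with total reads, as did 64.8% of all genes tested, and with TMM scaling, which shifts every value by -0.22, CTNNB1, AXIN1, LEF1 and NKD1 were below 0. With TMM scaling 0 of 10 members passed the fold of 2 in either direction, against 8.92% higher and 2.26% lower of all genes tested, and at a fold of 1.5 LGR5 (0.78) and APC (0.79) were the members past it, against 15.3% higher.

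**Figure D3:**
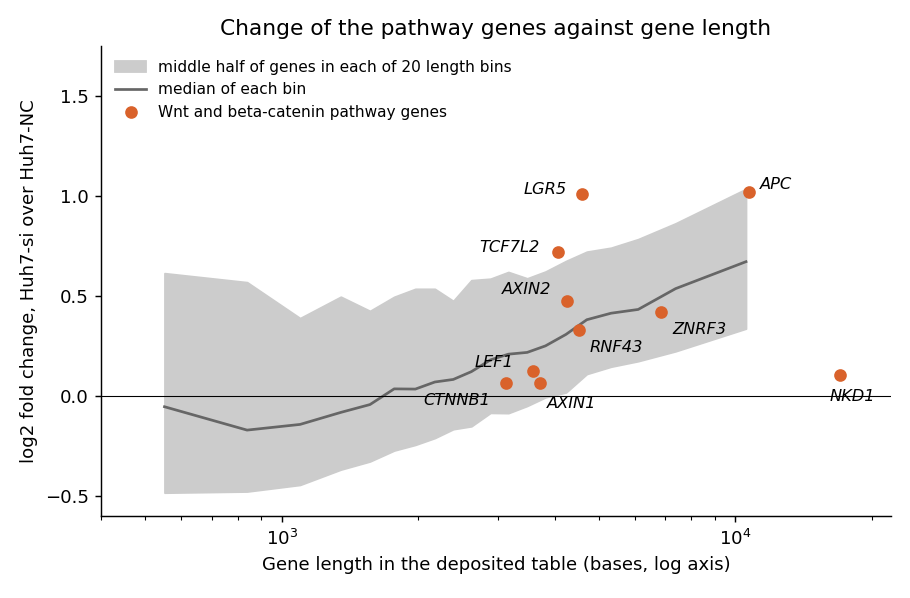
Log2 change of the 10 genes (orange) against the gene length in the deposited table (bases, log axis), over the median (line) and the middle 50% (grey band) of the genes tested in each of 20 length bins. LGR5 and TCF7L2 lie above the band, APC lies near its upper edge, and NKD1, at 17039 bases, lies to the right of the last bin's median length and below the band.

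The other genes of the pathway were taken from lists by role, 121 genes besides the members, of which 86 passed the read filter, 17 had no reads in either library and 18 had fewer than 10. Of the 86, 5 were higher (FZD6, LRP6, SFRP4, EP300 and CD44) and 0 were lower, beside the 13.0% and 1.19% of all genes tested. With TMM scaling FZD6 and SFRP4 remained past the threshold and 0 were lower, beside 8.92% higher and 2.26% lower of all genes tested.

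Ligands were sparse. Of 19 Wnt genes, 6 passed the filter and 0 were higher or lower. The ones with most reads were WNT3 with 104 and 91 reads and WNT9B with 40 and 43, and WNT11 had 34 and 22 (-0.58, -1.42 to 0.24). The intervals of all 6 held 0. No R-spondin gene had a read in either library. Of the genes needed to release Wnt ligands, WLS, which carries them to the surface, had 207 and 302 reads (log2 change 0.59, 0.33 to 0.86), and PORCN, which lipidates them, had 193 and 187 (0.00, -0.29 to 0.30).

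Receptors were well represented, with 13 of 16 past the filter and a median log2 change of 0.59. With TMM scaling that median was 0.37, and against genes of similar length it was 0.25. LRP5, the most abundant co-receptor, had 11236 and 12709 reads and a log2 change of 0.23 (0.19 to 0.26), and RYK, a Wnt-binding receptor, had 1168 and 1374 reads and 0.28 (0.17 to 0.40). LRP6, the relative of LRP5, rose from 652 to 1268 reads, a log2 change of 1.01 (0.87 to 1.15). It gained on LRP5 by 0.78 (0.64 to 0.93). By TPM the log2 change of LRP6 was 0.70, under the threshold. Relative to genes of like length LRP6 stood at 0.34 and LRP5 at -0.19. FZD6 rose from 45 to 138 reads, a log2 change of 1.67 (1.17 to 2.18), and remained 1.41 above genes of like length. FZD4, with 0.93, and FZD5, with 0.79, were under the threshold. FZD4 overlaps PRSS23 on the opposite strand (481 and 1102 reads).

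Of 16 extracellular antagonists and their co-factors, 9 passed the filter. DKK1, a secreted blocker of LRP5 and LRP6 and a pathway target, was the most abundant with 4151 and 4969 reads and a log2 change of 0.31 (0.25 to 0.37). DKK3, a relative of DKK1, had 242 and 266 reads and 0.18 (-0.07 to 0.44). SFRP4, which binds Wnt ligands, rose from 19 to 76 reads, a log2 change of 2.05 (1.31 to 2.86) that rests on few reads. DKK2, DKK4, SFRP1, SFRP2 and SOST had no reads in either library.

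Inside the cell, the 3 Dishevelled genes ranged from -0.01 (DVL2) to 0.20 (DVL3) and 0 passed the threshold. Of 18 genes of the destruction complex and its regulators, APC was the 1 that passed it, and the median was 0.33. CSNK1D, a casein kinase, had 5543 and 7331 reads and 0.45 (0.40 to 0.50). The kinase genes GSK3B (1313 and 1882 reads, 0.57), CSNK1A1 (2652 and 2867 reads, 0.16) and GSK3A (2317 and 1946 reads, -0.20) differed in direction by counts, and by TPM GSK3B had -0.24 and GSK3A 0.24. BTRC, the ubiquitin ligase adaptor for beta-catenin, had 371 and 382 reads and 0.09 (-0.12 to 0.30). The phosphatase genes PPP2CA and PPP2R1A had -0.37 and -0.34 by counts, and 0.46 and -0.40 by TPM. Of 19 nuclear factors, EP300, a histone acetyltransferase and co-activator, was the 1 that passed the threshold, with 1437 and 2954 reads and a log2 change of 1.09. TLE1, a co-repressor of TCF factors, had 3853 and 4736 reads and 0.35 (0.29 to 0.41), and CTNNBIP1, which blocks binding of beta-catenin to TCF factors, had 794 and 578 reads and -0.41 (-0.57 to -0.25), which by TPM was 0.01.

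**Figure D4:**
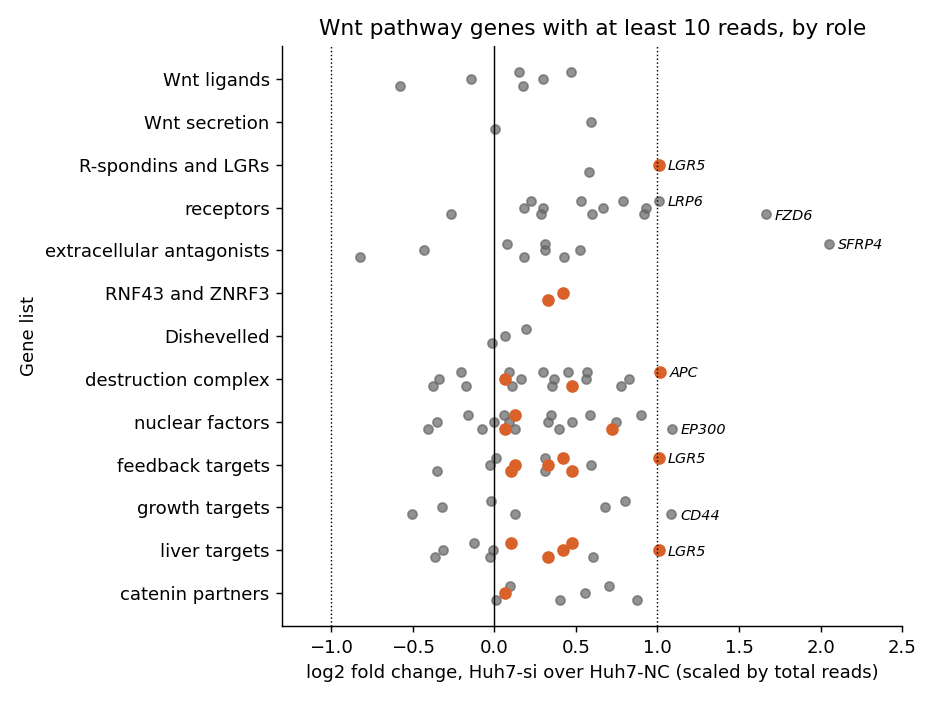
Log2 change (Huh7-si over Huh7-NC, scaled by total reads) of the Wnt pathway genes with at least 10 reads over both libraries, by role, where a gene with several roles appears in each. Orange points are the 10 genes described in full, grey points are other genes of the lists, vertical jitter carries no meaning, and dotted lines mark a fold of 2. LRP6, FZD6, SFRP4, EP300 and CD44 are the grey points past the threshold and are named.

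Among 12 feedback targets that passed the filter, LGR5 was the 1 past the threshold and the median was 0.31. SP5, a direct target that represses transcription, had 203 and 193 reads and a log2 change of -0.02 (-0.32 to 0.27), and NKD2 had 79 and 77 reads and 0.01 (-0.46 to 0.48). NOTUM, a secreted enzyme that inactivates Wnt ligands, had 76 and 91 reads and 0.31 (-0.15 to 0.77). Of the 7 growth-related targets with enough reads, CD44, a cell surface glycoprotein, rose from 99 to 203 reads, a log2 change of 1.09 (0.73 to 1.45). MYC had 2921 and 3089 reads and 0.13 (0.06 to 0.20), while CCND1 (cyclin D1) had 6763 and 5224 reads and -0.32 (-0.38 to -0.27) and BIRC5 (survivin) had -0.51. By TPM CCND1 was at 0.05 (87.4 and 90.7) and BIRC5 at -0.06 (59.8 and 57.4), so these lower values rest on the counts.

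The liver targets did not share a direction. GLUL, glutamine synthetase and the best known target around the central vein, had 6596 and 6329 reads and a log2 change of -0.01 (-0.06 to 0.04). TBX3, a transcription factor, had 1112 and 1635 reads and 0.61 (0.49 to 0.72), and OAT, ornithine aminotransferase, had 1394 and 1048 reads and -0.36 (-0.48 to -0.25). These values depended on the scale. By TPM GLUL had 0.31 (236 and 292), OAT -0.11 and TBX3 1.12, which is past a fold of 2 on that scale. With TMM scaling GLUL stood at -0.24, OAT at -0.59 and TBX3 at 0.38. Of the 17 genes of this list, which includes 5 members, 11 passed the filter, and by counts LGR5 alone passed the threshold. CYP2E1 had 4 and 5 reads and CYP1A2 had none. Of the 7 genes of beta-catenin and its adhesion partners, 0 passed the threshold: CTNNA1 had 0.10, JUP 0.01, CDH1 0.56, CTNND1 0.70 and CDH2 0.87.

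The deposited TPM values gave larger differences for the members than the counts. By TPM, APC went from 1.05 to 2.61 and LGR5 from 12.7 to 28.9, log2 changes of 1.31 and 1.19. The median of the members by TPM was 0.85, and that of all genes tested was 0.39. Over all genes tested the TPM change exceeded the count change by a median of 0.18. LEF1 departed most from this among the members: its 36 and 38 reads correspond to a TPM of 1.26 and 2.35, a log2 change of 0.90 by TPM against 0.13 by counts. The TPM of AXIN2 went from 2.16 to 3.95 (0.87 against 0.48) and that of ZNRF3 from 9.15 to 16.2 (0.82 against 0.42). LGR5 and NKD1 differed by 0.18 and 0.19 between the scales, close to the median of all genes. The length that the authors' tool assumed for each library is not given in the table, and its part in these differences was not tested.

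**Figure D5:**
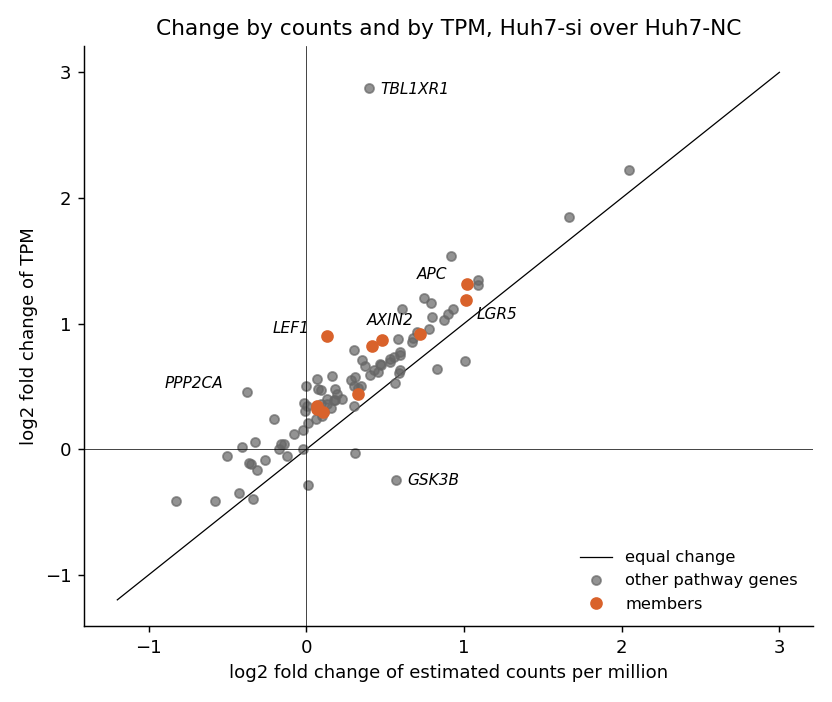
Log2 change by TPM against log2 change by CPM from estimated counts for the members (orange) and the other Wnt pathway genes with at least 10 reads (grey), with the line of equal change. Most points lie above the line, LEF1 lies 0.77 above it, and TBL1XR1 and GSK3B lie farthest from it on either side.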

How the data were processed

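RNA-seq libraries of Huh7 cells, 1 with control siRNA and 1 with siRNA against BRF2, were analyzed. The submitters' processing notes name Bowtie2 2.0.6, TopHat2 2.0.12 and GRCh37, with no role. The counting tool, annotation and strandedness are not given in the sources used here. The authors deposited estimated counts per gene, not scaled, and TPM values, with a gene length in bases. Their own fold change and p-value columns were not used. Estimated counts were rounded to whole numbers for tests. Of the genes tested, 52.7% have a fractional count, so reads were divided between genes or transcripts, which adds uncertainty for overlapping genes.

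CPM were computed from total counts. Genes with at least 10 reads over both libraries were tested by an exact binomial test with Clopper-Pearson intervals, and ratios between genes used the conditional odds ratio. Without replicates no dispersion can be estimated, so edgeR and DESeq2 gave scalings and 1 alternative test in which the biological coefficient of variation was set to 0.4. Length bins held equal numbers of genes and used a pseudocount of 0.5 reads. Gene positions are from GENCODE release 29 (GRCh38), which holds 94.8% of the table's identifiers. The table has no coordinates. The members and gene lists were chosen with earlier results of these data known. All members were named, together with each pathway gene past the threshold, the most abundant genes of each list and relatives of the members. The other genes named were chosen after their values were seen. The test was tried on simulated reads. Python 3.11.15, SciPy 1.17.1, pandas 2.3.3, NumPy 2.4.6, matplotlib 3.10.9, R 4.3.3, edgeR 4.0.16 and DESeq2 1.42.0 were used.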

Additional observations from a re-analysis of the deposited data

How the results depend on the processing

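The number of members higher in Huh7-si was 2 with total reads. It was 0 with TMM scaling, median-of-ratios scaling, the total without the 100 top genes and relative to genes of like length. The exact test of edgeR with biological variation set to 0.4 also gave 0. With 1 library a condition, no fold near 2 could reach a p under 0.05 in that test, so its 0 was fixed by the setting. The number was 2 without a filter on low counts and with 10 reads required of both libraries. Neither setting could change it, because every member had at least 36 reads in each library. The fold threshold alone also gave 2, and it could not add a member because no other reached a fold of 2. At a fold of 1.5 the number was 3. Of all genes tested, 13.0% were higher with total reads, 8.92% with TMM scaling and 23.6% at a fold of 1.5 with total reads. The share of all genes under the other settings is not given here, so the member counts there have no background beside them. No member was lower under these alternatives. LGR5 and APC kept their direction, at 0.78 and 0.79 with TMM, 0.80 and 0.81 with median of ratios, 0.98 and 0.99 without the top genes, 0.63 and 0.35 relative to like length and 0.99 and 0.95 with a pseudocount of 1 CPM. The median of the members moved from 0.37 to 0.15 with TMM, 0.17 with median of ratios and 0.85 by TPM, and reversed to -0.07 relative to like length. The median of all genes tested was 0.21 with total reads, -0.02 with TMM and 0.39 by TPM. With TMM and median-of-ratios scaling, values turned negative for CTNNB1 (-0.16 and -0.14), AXIN1 (-0.16 and -0.14), LEF1 (-0.10 and -0.08) and NKD1 (-0.12 and -0.10). Relative to like length they did so for CTNNB1 (-0.15), AXIN1 (-0.19), LEF1 (-0.09), NKD1 (-0.57), RNF43 (-0.05) and ZNRF3 (-0.12). Which scaling is closer to the cells was not tested. With 36 and 38 reads, LEF1 is limited by depth. No paired analysis was possible because each condition has 1 library.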

Other observations

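Outside the members, the TPM and count scales parted most for TBL1XR1, a subunit of a nuclear co-repressor complex, whose 1051 and 1339 reads (log2 change 0.40) correspond to a TPM of 10.3 and 75.6 (2.87). GSK3B, a kinase of the destruction complex, parted in the other direction, with a log2 change of 0.57 by counts and -0.24 by TPM (46.6 and 39.4). PPP2CA, a phosphatase catalytic subunit, had -0.37 by counts and 0.46 by TPM (45.6 and 62.6). These 3 genes were chosen after their values were seen. Of the 86 pathway genes tested besides the members, 12 were lower by counts and higher by TPM, among them GSK3A, CCND1, CTNNBIP1 and PPP2CA. In the other direction, 3 were higher by counts and lower by TPM, among them GSK3B. The share of all genes tested that changed sign is not given here, so these counts have no background beside them. Over all genes tested the TPM change exceeded the count change by a median of 0.18. No member changed sign between the columns. The cause was not tested.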
